A study of Homo sapiens with 12 samples.

Results

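A set of 10 regulators of the epithelial-mesenchymal transition was followed in lung cancer cells that express the zinc finger factor ZNF263: the inducers ZEB1, ZEB2, SNAI1, SNAI2 and TWIST1, the epithelial regulators ESRP1, ESRP2, GRHL2 and OVOL1, and the forkhead factor FOXQ1. These 10 genes were taken by symbol from the 20003 genes of the deposited expression table, with no threshold on measured values. RNA-seq had been run on PC9, HCC827 and H1975, established lines of human non-small-cell lung cancer that carry activating mutations of the receptor EGFR. The sample titles write PC9OR, HCC827OR and H1975OR without saying what OR stands for, and the names used here are those of the cell line labels. In each line a vector expressing ZNF263 was set against a control vector, with n = 2 libraries for each of the 6 groups. All cells, control cells included, had been exposed to osimertinib, an EGFR inhibitor, in steps and were kept in DMEM. The labels do not give the promoter of the vector, do not say whether a group is a clone or a pool, and do not say that the 2 libraries of a group come from separate cultures. The spread behind each p-value is therefore that between libraries, and it may be technical.

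In the epithelial-mesenchymal transition, cells lose adherens and tight junctions and take on migratory, mesenchymal features. ZEB, SNAI and TWIST factors are its classical inducers: the first 2 families bind E-box sequences and repress genes of epithelial adhesion such as CDH1 (E-cadherin). ESRP1 and ESRP2 are RNA-binding proteins that direct epithelial splicing, and GRHL2 and OVOL1 are transcription factors that hold the epithelial state and are known to repress ZEB genes, as ZEB1 represses several of them in turn. In EGFR-mutant lung cancer this transition is known as one of the states in which cells tolerate EGFR inhibitors.

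The stretch from 250 bases before to 50 bases after the gene start is shown for ZEB1 and ZEB2, which rose together in H1975, and for FOXQ1, which fell in PC9 and H1975. The sequences are RefSeq's (GRCh38.p14), whose table matched these 3 members. They are written 5′ to 3′ on the strand of the gene, and capitals mark a match to a searched motif. The gene start is that of RefSeq's table and differs from the gene bounds given further down, which are GENCODE's: the ZEB1 and FOXQ1 stretches end before the GENCODE start, and the ZEB2 stretch lies inside the GENCODE gene. The plus-strand ZEB1 stretch lies at chr10:31318167-31318466, the minus-strand ZEB2 stretch at chr2:144520070-144520369 and the plus-strand FOXQ1 stretch at chr6:1311848-1312147.
ZEB1: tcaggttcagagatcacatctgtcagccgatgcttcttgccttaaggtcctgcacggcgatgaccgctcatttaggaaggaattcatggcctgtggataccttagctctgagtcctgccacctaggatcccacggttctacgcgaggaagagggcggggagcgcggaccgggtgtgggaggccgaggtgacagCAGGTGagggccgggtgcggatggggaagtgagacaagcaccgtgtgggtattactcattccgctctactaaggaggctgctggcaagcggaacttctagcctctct
ZEB2: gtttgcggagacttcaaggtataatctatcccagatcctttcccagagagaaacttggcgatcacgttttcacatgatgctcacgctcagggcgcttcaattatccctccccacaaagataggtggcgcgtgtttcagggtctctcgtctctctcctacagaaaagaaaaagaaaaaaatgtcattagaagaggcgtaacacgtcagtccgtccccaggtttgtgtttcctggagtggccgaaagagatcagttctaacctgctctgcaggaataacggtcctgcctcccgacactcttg
FOXQ1: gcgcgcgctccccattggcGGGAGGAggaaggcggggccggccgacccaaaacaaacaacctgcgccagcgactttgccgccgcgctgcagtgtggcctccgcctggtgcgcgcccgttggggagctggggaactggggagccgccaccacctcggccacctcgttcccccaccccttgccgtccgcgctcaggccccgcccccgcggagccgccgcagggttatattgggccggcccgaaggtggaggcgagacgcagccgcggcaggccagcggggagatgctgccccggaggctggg
The E-box CAGGTG, or CACCTG on the other strand, is the sequence that ZEB and SNAI factors read. It stood once in the ZEB1 stretch, starting 57 bases before the RefSeq start (position -57), and not in those of ZEB2 and FOXQ1. Of 27305 promoters of this length, 20.6% hold it. GGGAGGA, or TCCTCCC on the other strand, is part of the G-rich motif known for ZNF263. It stood once in the FOXQ1 stretch (position -231), in 0 of the other 2, and in 17.8% of all promoters. The motifs do not overlap each other. A match describes letters only, not a bound site.

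ZNF263 itself was higher in every library labelled with it. It had 39.3 and 39 FPKM in PC9 cells with ZNF263 against 9.55 and 9.11 with control, 19.6 and 19.8 against 13.2 and 11.8 in HCC827, and 39.1 and 39.8 against 10.2 and 9.63 in H1975, so the difference was smallest in HCC827. FPKM values are fragments scaled by gene length and library size, and depth was read back from them as whole reads: 14244327 to 16283953 per library in PC9, 13559037 to 14060669 in HCC827 and 22403814 to 24138447 in H1975. These sums leave out genes without recovered reads. Read numbers below are known up to a factor shared by the libraries of a gene in a line. Changes were tested with limma on log2(FPKM + 1), a scale on which genes with low values appear to change less than they do, and a gene was called at a Benjamini-Hochberg adjusted p under 0.05 over all genes tested in the line. All 10 members passed the filter of 1 FPKM in at least 2 of the 12 libraries. Levels of different lines may come from tables that were made separately before they were joined, so they are set side by side without a test.

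The numbers of genes called overall set the scale. With ZNF263, 11.3% of 12623 genes were called in PC9 (7.21% higher, 4.12% lower), 19.5% of 12266 in HCC827 (13% higher, 6.44% lower) and 64.2% of 12258 in H1975 (32.1% higher, 32.1% lower). Of the 10 members, 2 were called in PC9, both lower. In HCC827 4 were called, 2 higher and 2 lower. In H1975 8 were called, 2 higher and 6 lower, in a line in which most genes were called.

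**Figure D1:**
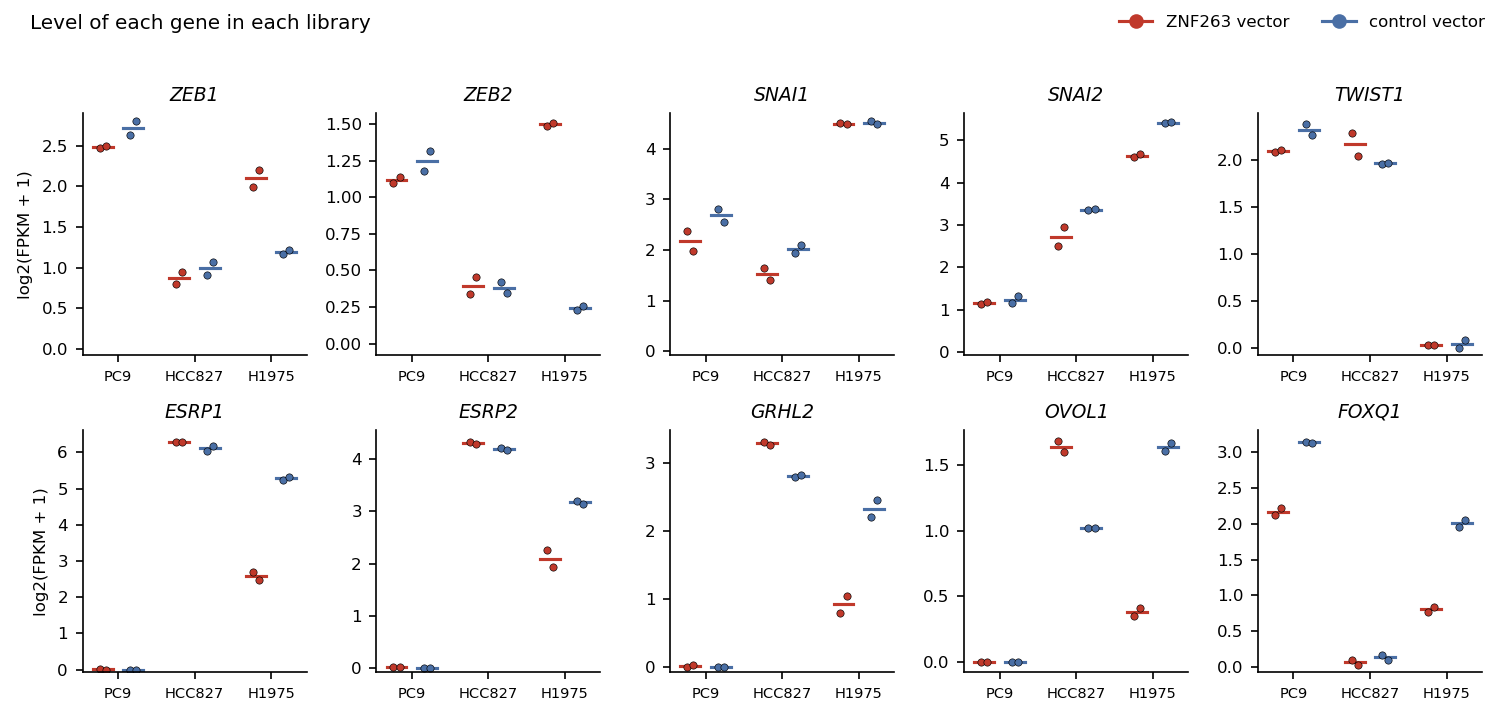
Level of each of the 10 genes, as log2(FPKM + 1), in each library of PC9, HCC827 and H1975. Points are libraries (red ZNF263, blue control), bars are group means of n = 2, and each panel has its own axis. ZEB1 and ZEB2 are higher and ESRP1, ESRP2, GRHL2 and OVOL1 lower with ZNF263 in H1975, while the last 4 are near 0 in PC9.

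ZEB1 and ZEB2, zinc finger homeodomain repressors, rose in H1975. ZEB1 (chromosome 10, 31318495 to 31529814, GRCh38, plus strand) had 2.97 and 3.61 FPKM with ZNF263, against 1.25 and 1.33 FPKM with control, from 827 to 1010 reads against 347 to 354. Both ZNF263 libraries lay above both control libraries, and the mean was 2.55-fold higher. The log2 change was 0.90 ± 0.0945 (SE, limma adjusted p = 2.74e-06). In PC9, ZEB1 had 4.55 and 4.65 FPKM with ZNF263 and 5.20 and 5.95 with control, which is lower in both ZNF263 libraries but did not pass the test (log2 change -0.23 ± 0.0945, limma adjusted p = 0.154). In HCC827 it had 0.741 and 0.918 FPKM with ZNF263 and 0.878 and 1.10 with control, and the groups overlapped (limma adjusted p = 0.404). ZEB1 in H1975 with ZNF263 thus stood above its own control and below both PC9 groups.

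ZEB2 (chromosome 2, 144364364 to 144524583, minus strand) showed the wider gap. In H1975 it had 1.81 and 1.85 FPKM with ZNF263 against 0.175 and 0.193 FPKM with control, from 570 to 586 reads against 56 to 57. That is a 9.96-fold higher mean, a log2 change of 1.26 ± 0.0723 (SE, limma adjusted p = 9.87e-09), or 2.77 with a pseudocount of 0.1 FPKM. In PC9, where the control already held ZEB2, the gene had 1.14 and 1.20 FPKM with ZNF263 and 1.27 and 1.49 with control (log2 change -0.13, limma adjusted p = 0.287). In HCC827 it had 0.263 and 0.372 FPKM with ZNF263 and 0.341 and 0.269 with control, with overlapping groups. The ZNF263 libraries of H1975 held the highest ZEB2 levels of the 12 libraries. The change in H1975 differed from that in PC9 and from that in HCC827 for ZEB1 (by 1.13 and 1.02, limma adjusted p = 1.53e-05 and 3.39e-05) and for ZEB2 (by 1.39 and 1.24, limma adjusted p = 2.31e-07 and 6.1e-07). Between HCC827 and PC9 the changes of ZEB1 and ZEB2 did not differ by the test (limma adjusted p = 0.681 and 0.408).

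SNAI1 and SNAI2 (Snail and Slug), zinc finger repressors of the SNAI family, did not rise in any line. SNAI1 (chromosome 20, 49982999 to 49988886, plus strand) fell in PC9 and HCC827. In PC9 it had 4.21 and 2.92 FPKM with ZNF263 against 6.03 and 4.85 FPKM with control, from 94 to 131 reads against 172 to 203, and changed by -0.505 ± 0.128 on the log2 scale (SE, limma adjusted p = 0.0232). In HCC827 it had 2.13 and 1.66 FPKM with ZNF263 against 2.83 and 3.27 FPKM with control, from 50 to 64 reads against 87 to 96, and changed by -0.49 ± 0.128 (limma adjusted p = 0.0189). In both lines the groups were apart, but these calls rest on few reads and on single libraries. Without PC9 ZNF263 replicate 2 or PC9 control replicate 1 the PC9 change was -0.30 or -0.37 (limma adjusted p = 0.211 and 0.207), and over 12 alternatives the adjusted p lay between 0.00829 and 0.211. Without HCC827 ZNF263 replicate 2 or HCC827 control replicate 2 the HCC827 change was -0.37 or -0.41 (limma adjusted p = 0.141 and 0.0836), with a range of 0.00671 to 0.141. With no filter on low values the call ended in each of the 2 lines (limma adjusted p = 0.0692 in PC9 and 0.0603 in HCC827), as it did when each line was fitted alone (0.209 and 0.061). In H1975 SNAI1 stood far higher, at 21.6 and 21.4 FPKM with ZNF263 and 22.3 and 21.5 FPKM with control, and the groups overlapped (log2 change -0.028, limma adjusted p = 0.878).

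SNAI2 (chromosome 8, 48917604 to 48921740, minus strand) fell in HCC827 and H1975. H1975 held the most of it: 23.3 and 24.5 FPKM with ZNF263 against 41.7 and 42 FPKM with control, from 1726 to 1824 reads against 2919 to 3136. The change was -0.78 ± 0.115 (SE, limma adjusted p = 6e-05). In HCC827 it had 4.63 and 6.77 FPKM with ZNF263 against 9.15 and 9.37 FPKM with control, a change of -0.63 ± 0.115 (limma adjusted p = 0.00246). The 2 ZNF263 libraries of HCC827 lie apart, and without HCC827 ZNF263 replicate 1 the change was -0.40 (limma adjusted p = 0.0167, range over 12 alternatives 0.000167 to 0.0705). The highest of these came from the fit on HCC827 alone, in which SNAI2 was not called. In PC9 SNAI2 was low, with 1.20 and 1.26 FPKM with ZNF263 and 1.23 and 1.48 with control (limma adjusted p = 0.754). The change in H1975 differed from that in PC9 by -0.70 (limma adjusted p = 0.00285), and that in HCC827 by -0.55 (limma adjusted p = 0.0517), which missed the threshold. Within H1975 the ZEB and SNAI2 changes thus had opposite signs, and SNAI1 and SNAI2 were still the most abundant of the 5 inducers per unit of length with ZNF263, at 21.4 to 24.5 FPKM against 1.81 to 3.61 FPKM for ZEB1 and ZEB2.

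TWIST1, a basic helix-loop-helix factor (chromosome 7, 19020991 to 19117672, minus strand), was not called in any line. In PC9 it had 3.23 and 3.31 FPKM with ZNF263 and 4.20 and 3.82 FPKM with control, with a change of -0.23 ± 0.0851 (SE, limma adjusted p = 0.109). In HCC827 it had 3.90 and 3.12 FPKM with ZNF263 and 2.89 and 2.92 FPKM with control, with a change of 0.20 ± 0.0851 (limma adjusted p = 0.116). The groups were apart in both lines, in opposite directions, and the changes of HCC827 and PC9 differed by 0.43 ± 0.12 (SE, limma adjusted p = 0.0417). TWIST1 passed in PC9 after quantile normalization (log2 change -0.27, limma adjusted p = 0.0466, range over 11 alternatives 0.0466 to 0.435) and in HCC827 without HCC827 ZNF263 replicate 2 (0.33, limma adjusted p = 0.0288, range 0.0288 to 0.63). In H1975 it had 1 read in each ZNF263 library and 0 and 3 reads in the control libraries, at or under the level of 3 reads that a count of 0 allows (0.0534 to 0.0577 FPKM), so no change was measurable. The worth of 1 read of TWIST1 in PC9 was 1.98 times that expected from HCC827. Either its recovered reads in PC9 are too few by a shared factor or its length there differs. Which of these holds was not tested, and its PC9 and HCC827 levels are not ranked.

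**Figure D2:**
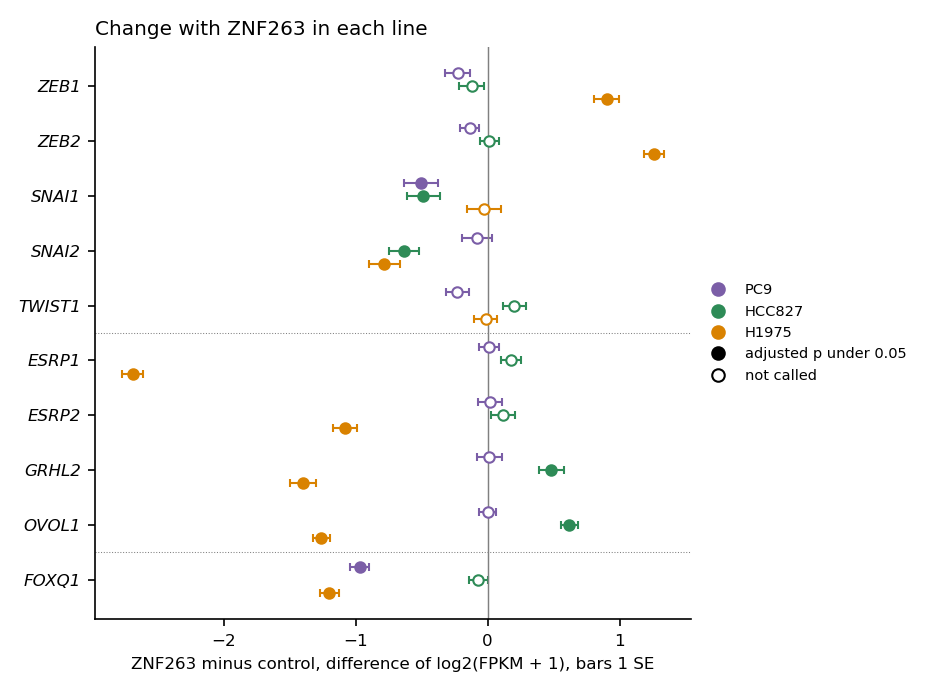
Change of each of the 10 genes with ZNF263, as the difference of log2(FPKM + 1) from control, in PC9 (purple), HCC827 (green) and H1975 (orange). Bars are 1 SE of the limma fit (n = 2 libraries per group), filled points passed an adjusted p of 0.05 and open points did not. The 4 epithelial regulators fall in H1975, with changes of -2.69 to -1.08, and ESRP1 lies farthest from 0 on this scale.

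ESRP1 and ESRP2, the epithelial splicing regulators, fell in H1975. ESRP1 (chromosome 8, 94641074 to 94707466, plus strand) had 5.52 and 4.6 FPKM with ZNF263 against 37 and 38.8 FPKM with control, from 618 to 736 reads against 4868 to 5017. The mean was 7.49-fold lower with ZNF263, and the change of -2.69 ± 0.0762 (SE, limma adjusted p = 2.53e-11) was the one farthest from 0 among the members in any line on the log2(FPKM + 1) scale, although the ratio of means was larger for ZEB2. ESRP2 (chromosome 16, 68229111 to 68238102, minus strand) had 3.77 and 2.80 FPKM with ZNF263 against 8.14 and 7.86 FPKM with control, which is 2.43-fold lower (change -1.08 ± 0.0927, limma adjusted p = 4.19e-07). For both genes the groups were well apart. In bulk RNA, fewer cells that express a gene and less RNA per cell cannot be told apart.

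HCC827 held the most of both ESRP genes. ESRP1 had 76.9 and 77.3 FPKM with ZNF263 against 65.1 and 70.9 FPKM with control, with a change of 0.18 ± 0.0762 that did not pass (limma adjusted p = 0.12). ESRP2 had 19.1 and 18.5 FPKM with ZNF263 against 17.5 and 17 with control (change 0.12, limma adjusted p = 0.416). Both were slightly higher in each ZNF263 library without passing the test. PC9 was almost without them: ESRP1 had 1 read in 1 ZNF263 library and 0 in the other 3 libraries, and ESRP2 had 2 and 3 reads with ZNF263 against 1 and 1 with control. At up to 3 reads per library no change of either gene was measurable in PC9. The change in H1975 differed from that in HCC827 by -2.87 for ESRP1 and by -1.20 for ESRP2 (limma adjusted p = 9.24e-10 and 7.67e-06).

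GRHL2 and OVOL1 were the 2 members that rose in HCC827, and both fell in H1975. GRHL2, a grainyhead-like factor that activates CDH1 and claudin genes (chromosome 8, 101492432 to 101669726, plus strand), had 8.97 and 8.63 FPKM in HCC827 with ZNF263 against 5.92 and 6.11 FPKM with control. The reads were 1111 to 1151 against 767 to 778, and the change was 0.48 ± 0.0967 (SE, limma adjusted p = 0.00445). With a pseudocount of 0.1 FPKM this call was lost (0.54, limma adjusted p = 0.057, range over 12 alternatives 0.00243 to 0.057). In H1975 GRHL2 had 0.740 and 1.07 FPKM with ZNF263 against 3.6 and 4.48 FPKM with control, a 4.46-fold lower mean (change -1.40 ± 0.0967, limma adjusted p = 5.35e-08). PC9 had 1 recovered read of it, in ZNF263 replicate 2 (0.0194 FPKM), and 0 in the other 3. That read was worth 2.7 times what HCC827 gives, so it may stand for more than 1. The value is under the level of 3 reads there (0.0216 FPKM).

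OVOL1, a zinc finger repressor of ZEB1 (chromosome 11, 65787022 to 65797219, plus strand), had 2.20 and 2.03 FPKM in HCC827 with ZNF263 against 1.03 and 1.03 FPKM with control. From 197 to 212 reads against 97 to 102, its mean was 2.05-fold higher (change 0.62 ± 0.0644, SE, limma adjusted p = 6.06e-05, or 0.97 with a pseudocount of 0.1 FPKM). In H1975 it had 0.274 and 0.331 FPKM with ZNF263 against 2.05 and 2.18 FPKM with control, 6.98-fold lower (change -1.26 ± 0.0644, limma adjusted p = 3.26e-09, or -2.46 with a pseudocount of 0.1 FPKM). The groups were apart in both lines. OVOL1 had 0 reads in all 4 PC9 libraries, which allows levels of up to 0.026 to 0.0297 FPKM (3 reads, counting error only). The HCC827 and H1975 changes had opposite signs, and H1975 minus HCC827 was -1.88 for GRHL2 and -1.87 for OVOL1 (limma adjusted p = 2.06e-07 and 6e-09).

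FOXQ1, a forkhead factor reported to induce the transition in carcinoma cells (chromosome 6, 1312440 to 1314748, plus strand), fell in PC9 and H1975. In PC9 it had 3.34 and 3.66 FPKM with ZNF263 against 7.88 and 7.74 FPKM with control, from 141 to 160 reads against 360 to 372. The mean was 2.23-fold lower and the change -0.97 ± 0.0736 (SE, limma adjusted p = 3.28e-06). In H1975 it had 0.698 and 0.792 FPKM with ZNF263 against 2.89 and 3.16 FPKM with control, 4.06-fold lower (change -1.20 ± 0.0736, limma adjusted p = 1.71e-08, or -1.89 with a pseudocount of 0.1 FPKM). The groups were far apart in both lines, and the changes of H1975 and PC9 did not differ by the test (difference -0.235 ± 0.104, SE, limma adjusted p = 0.0734). In HCC827 FOXQ1 was near the limit of counting, with 1 to 3 reads in the ZNF263 libraries and 3 to 6 in the control libraries (limma adjusted p = 0.547).

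The 5 inducers and the 4 epithelial regulators were also averaged on the log2(FPKM + 1) scale in each library, as a description without a test, since the genes were chosen. In H1975 the inducer mean less the epithelial mean was 0.995 and 1.11 with ZNF263 against -0.789 and -0.852 with control, so its sign differs between the groups. In HCC827 it was -2.39 and -2.30 with ZNF263 against -1.80 and -1.78 with control, and in PC9 1.82 and 1.76 against 2.03 and 2.05. The difference was thus higher with ZNF263 in H1975 (by 1.87) and lower in HCC827 (change -0.55) and PC9 (change -0.25, or -0.40 with a pseudocount of 0.1 FPKM). The H1975 shift lay mostly in the epithelial mean (1.5 with ZNF263, 3.1 with control) and less in the inducer mean (2.55 and 2.28). In PC9 the difference rests on the inducers alone, because the epithelial mean was 0.0107 and 0.0151 with ZNF263 and 0.00264 and 0.0025 with control. The averages hide that members of 1 group moved apart: SNAI2 fell in H1975 while ZEB1 and ZEB2 rose.

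**Figure D3:**
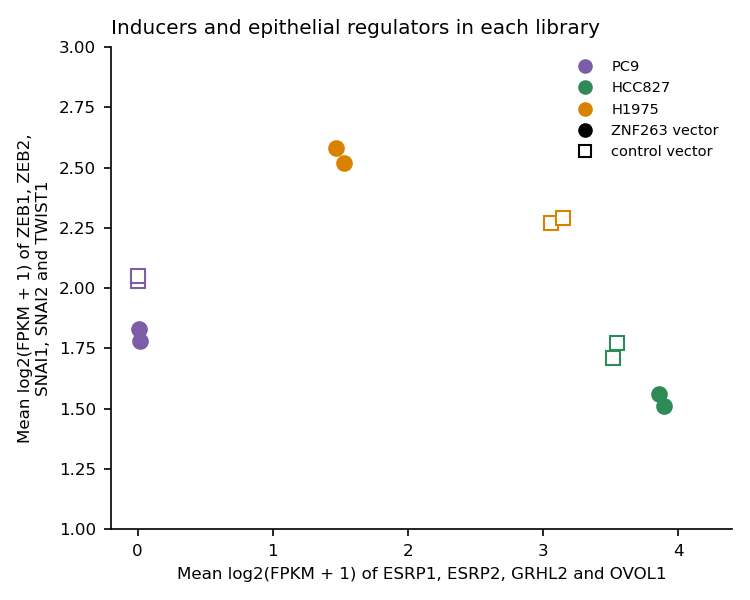
Mean log2(FPKM + 1) of the 5 inducers (vertical axis, from 1) against that of the 4 epithelial regulators (horizontal axis) in each of the 12 libraries, with filled circles for ZNF263, open squares for control and colours for the lines. The H1975 ZNF263 libraries lie left of and above their controls, the HCC827 ones right of and below theirs, and the PC9 ones below theirs at an epithelial mean near 0.

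The members' changes were compared between lines by a limma F test of whether the change with ZNF263 differed. Of 12218 genes with values in all 3 lines 60.3% were called by it, and 9 of the 10 members were, all but SNAI1 (limma adjusted p = 0.0566). For 6 of the 9 the test includes a line in which the gene had 0 to 6 reads per library and its change was fixed near 0: ESRP1, ESRP2, GRHL2 and OVOL1 in PC9, FOXQ1 in HCC827 and TWIST1 in H1975. Differences from those lines are not given. The pairwise differences of SNAI1 between H1975 and PC9 (0.48, limma adjusted p = 0.0409) and between H1975 and HCC827 (0.46, limma adjusted p = 0.0483) were just past the threshold. For ZEB1 and ZEB2 the H1975 change differed from that of each other line, and for ESRP1, ESRP2, GRHL2 and OVOL1 it differed from that of HCC827, the other line in which they were expressed.

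Because so many genes moved in H1975, each member was set beside the tested genes within 5 Mb of it. Around ZEB1, 25 of 26 neighbours were higher with ZNF263 in H1975, with a median change of 0.33, and ZEB1 less that median was 0.57 (limma SE kept, adjusted p = 0.000195). Around ESRP1, 35 of 41 neighbours were lower (median -0.44), which leaves -2.25 (adjusted p = 1.02e-10). Around GRHL2, 29 of 34 were lower (median -0.54), which leaves -0.86 (adjusted p = 6.87e-06). ESRP1 and GRHL2 both lie on chromosome 8 and their windows overlap, so these are not separate surroundings. The SE is that of the member alone, so the p-values of this step leave out the spread among neighbours. FOXQ1 went against its surroundings, since 21 of 23 neighbours were higher (median 0.51) and FOXQ1 less the median was -1.71 (adjusted p = 7.43e-10). The medians around ZEB2, ESRP2, OVOL1 and SNAI2 were small beside the members' changes, at 0.000661, 0.066, -0.057 and 0.13. No member's call in any line was gained or lost by this step. In PC9 and HCC827 the medians lay between -0.0841 and 0.106. Why neighbours in H1975 moved together was not tested.

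**Figure D4:**
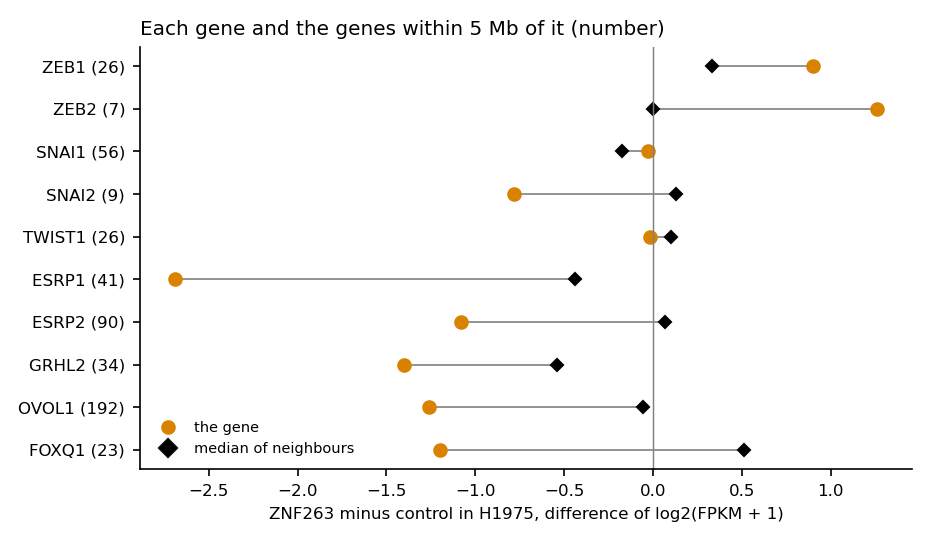
Change with ZNF263 in H1975, as the difference of log2(FPKM + 1) from control, of each of the 10 genes (orange circle) and the median of the tested genes within 5 Mb of it (black diamond, number of neighbours in brackets). ESRP1 and GRHL2 sit among lower neighbours (medians -0.44 and -0.54), ZEB1 among higher ones (0.33), and FOXQ1 is lower among higher neighbours (0.51).

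Genes on which these regulators act were counted in lists that were written with earlier results of these data known, so the counts describe the members' surroundings and are not independent evidence. Of all genes, 32.1% rose and 32.1% fell in H1975, 13% and 6.44% in HCC827, and 7.21% and 4.12% in PC9. Among 35 epithelial genes repressed by ZEB and SNAI factors, 0 rose and 35 fell in H1975 (median change -1.88, all genes 0.00254). Of the inducers, ZEB1 and ZEB2 rose there, SNAI2 fell (change -0.78), and SNAI1 and TWIST1 were not called. A link between these changes was not tested. The 35 genes include EPCAM, the epithelial adhesion molecule, with 31.2 and 32.2 FPKM with ZNF263 against 219.9 and 229.5 with control. Also among them are the claudin gene CLDN7 (change -2.73) and CDH1 (change -2.23, limma adjusted p = 3.83e-11). In HCC827, GRHL2 and OVOL1 rose and SNAI1 and SNAI2 fell. There 11 of the 35 rose and 2 fell (31.4% and 5.71%, median 0.11, all genes 0.0449). The protease gene PRSS8 was up by 0.97 and CLDN1, of tight junctions, was lower (change -0.355). CDH1 itself was not called there (0.058, limma adjusted p = 0.598). In PC9, ESRP1, ESRP2, GRHL2 and OVOL1 were at or near 0. Of the 35, 12 rose and 3 fell there (34.3% and 8.57%, median 0.16, all genes 0). CDH1 rose in PC9 to 16.3 and 17.5 FPKM with ZNF263 against 8.05 and 7.97 with control (change 0.99, limma adjusted p = 1.52e-06), and MAL2, of apical transport, rose by 1.14. EPCAM stayed near 0 in PC9, with 0.224 and 0.278 FPKM with ZNF263 and 0.414 and 0.168 with control (limma adjusted p = 0.83).

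Of 24 tested mesenchymal genes raised in the transition, 13 rose and 5 fell in H1975 (54.2% and 20.8%, against 32.1% of all genes each way). The counts were 4 and 6 in HCC827 (16.7% and 25%, against 13% and 6.44% of all genes). They were 9 and 5 in PC9 (37.5% and 20.8%, against 7.21% and 4.12%). The medians were 0.37 in H1975, 0.0412 in HCC827 and 0.21 in PC9. S100A4 (3.48) and the actin-binding gene TAGLN (2.97) led the rises in H1975, and NT5E, the ectonucleotidase CD73, fell there (change -1.12). VIM, the intermediate filament vimentin, rose in H1975 (0.71, limma adjusted p = 3.33e-08), fell in HCC827 (change -0.63, limma adjusted p = 4.83e-06) and was not called in PC9 (limma adjusted p = 0.852). CDH2, N-cadherin, rose in PC9 (0.34), fell in HCC827 (change -0.26) and had 10 to 13 reads with ZNF263 against 0 to 1 with control in H1975, without passing (limma adjusted p = 0.218).

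Other transcription factors of the 2 states were mixed on the inducing side. Of 27 tested other EMT transcription factors, 8 rose and 9 fell in H1975 (29.6% and 33.3%, near the 32.1% of all genes each way). The counts were 6 and 6 in HCC827 (22.2% each way, against 13% and 6.44% of all genes). They were 2 and 5 in PC9 (7.41% and 18.5%, against 7.21% and 4.12%). In H1975 ZNF703 (1.75) and FOXC1 (0.99) rose, whereas HMGA2 (change -2.02) and FOSL1 (change -1.54) fell. FOSL1, an AP-1 subunit, also fell in HCC827 (-0.57) and PC9 (-0.72), and FOXC2 fell in PC9, at 0.131 and 0.473 FPKM with ZNF263 against 2.29 and 2.41 with control. Of the tested other epithelial transcription factors, 4 rose and 16 fell of 26 in H1975 (15.4% and 61.5%, median -0.52). The counts were 9 and 1 of 24 in HCC827 (37.5% and 4.17%) and 7 and 0 of 26 in PC9 (26.9% and 0%), beside the same all-gene shares. TP63 (-2.70), a factor of basal epithelia, fell in H1975, while the endodermal factor GATA6 rose (1.20). The ETS factors EHF and SPDEF rose in HCC827 (0.82 and 0.60) and in PC9 (1.05 and 0.93).

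Among 16 splicing factors of either state other than the ESRP genes, 5 rose and 4 fell in H1975 (31.2% and 25%, no more than the 32.1% of all genes each way). RBFOX2 (0.84) and QKI (0.83), active in mesenchymal splicing, rose there, and RBM24 fell (-1.31). In HCC827 and in PC9 1 rose and 0 fell, and in both lines this was RBM47, an epithelial splicing partner (0.38 and 0.25). That is 6.25% and 0%, against 13% and 6.44% of all genes in HCC827 and 7.21% and 4.12% in PC9. Of 13 tested genes spliced by ESRP proteins, 7 rose and 4 fell in H1975 (53.8% and 30.8%, against 32.1% of all genes each way). The counts were 3 and 0 in HCC827 (23.1% and 0%) and 2 and 1 in PC9 (15.4% and 7.69%), beside the same all-gene shares. FGFR1 rose in H1975 (1.34) and ITGA6 fell (-1.48). These are gene totals, and isoforms were not analysed here.

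**Figure D5:**
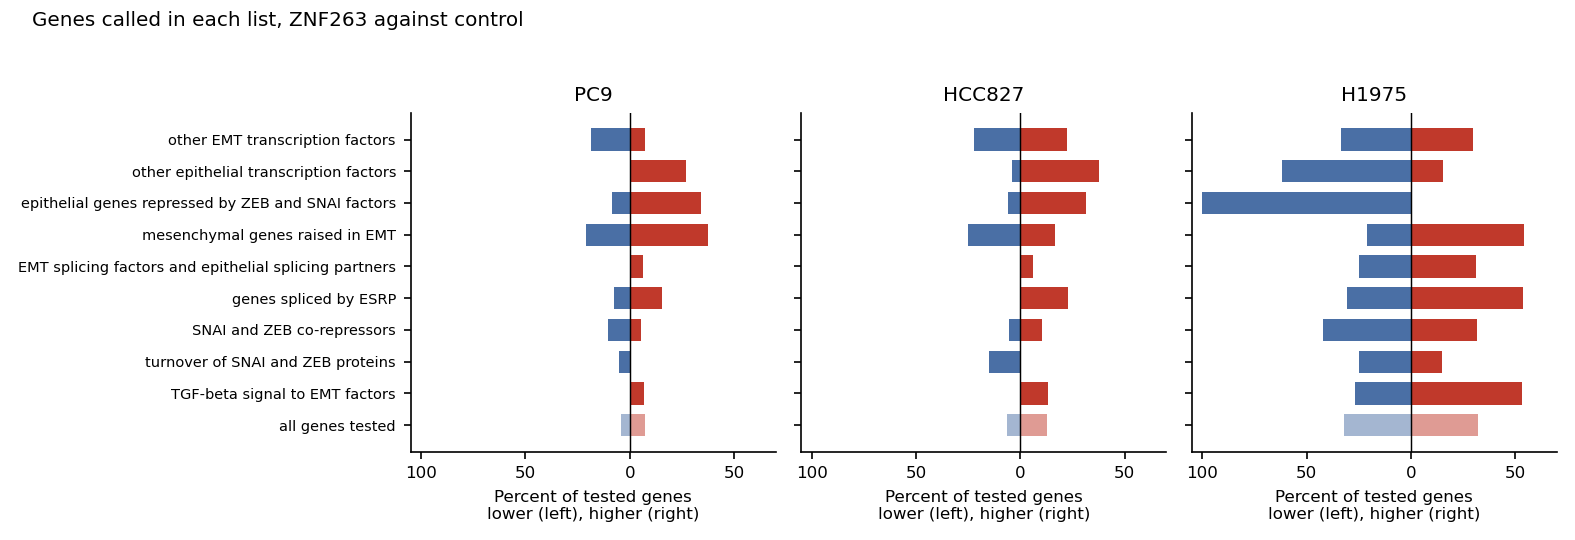
Percent of the tested genes of each list that were called lower (blue, left of 0) or higher (red, right of 0) with ZNF263 in PC9, HCC827 and H1975, above the same for all genes tested (pale). In H1975 all 35 epithelial genes repressed by ZEB and SNAI factors were called lower, against 32.1% of all genes.

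Partners of the inducers moved in both directions. Of 19 co-repressors of SNAI and ZEB proteins, 6 rose and 8 fell in H1975 (31.6% and 42.1%), 2 rose and 1 fell in HCC827, and 1 rose and 2 fell in PC9. CTBP2, a partner of ZEB proteins, fell in H1975 (-0.52) and PC9 (-0.24), and the demethylase gene KDM1A, a partner of SNAI1, rose in H1975 (0.73). Of 20 tested genes for the turnover of SNAI and ZEB proteins, 3 rose and 5 fell in H1975 (15% and 25%, both below the all-gene shares). The counts were 0 and 3 in HCC827 (0% and 15%) and 0 and 1 in PC9 (0% and 5%). Among those that fell was the F-box gene FBXO45 in H1975 (-0.53) and PC9 (-0.345). Of 15 tested genes of TGF-beta signalling, which induces SNAI and ZEB genes, 8 rose and 4 fell in H1975 (53.3% and 26.7%). The counts were 2 and 0 in HCC827 (13.3% and 0%) and 1 and 0 in PC9 (6.67% and 0%). LTBP1, which anchors latent TGF-beta, rose in H1975 (1.61), and SMAD3, a signal transducer of the pathway, fell (-0.71). MicroRNA genes of the miR-200 and miR-205 families, which target ZEB1 and ZEB2, were not analysed here.

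The label of non-small-cell lung cancer cells was checked against 9 lung epithelial markers. Their summed level was 1877 and 1866 FPKM with ZNF263 against 3954 and 3939 with control in H1975, 3373 and 3567 against 4162 and 3700 in HCC827, and 4192 and 3958 against 2786 and 2810 in PC9. The sum was thus lower with ZNF263 in H1975, lower by less in HCC827 and higher in PC9, and keratins make up most of it. By marker, 1 rose and 5 fell of 9 in H1975 (11.1% and 55.6%, against 32.1% of all genes each way). KRT8 rose there (0.24, limma adjusted p = 0.00696) while CDH1 and EPCAM fell. CDH1 had 12.5 and 14.4 FPKM with ZNF263 against 64 and 69.1 with control, and EPCAM 31.2 and 32.2 against 219.9 and 229.5. Most of the fall in the H1975 sum therefore lies in markers not named here. Of the 9, 2 rose and 2 fell in HCC827 (22.2% each way, against 13% and 6.44% of all genes). PC9 had 4 that rose and 0 that fell (44.4% and 0%, against 7.21% and 4.12% of all genes). In PC9 SFTPB was under 0.1 FPKM in all libraries and EPCAM near 0. The part of these markers in the members' changes was not tested. The 8 fibroblast markers summed to 11.3 and 11.4 FPKM with ZNF263 and 16.9 and 19.2 with control in H1975, where PDGFRA, DCN, THY1 and FAP stayed under 0.1 FPKM. Their sums were 22.3 and 23.4 against 20.4 and 22.1 in HCC827, and 6.69 and 7.52 against 6.91 and 6.85 in PC9, with 4 and 6 of the 8 markers under 0.1 FPKM. The 5 endothelial markers summed to at most 0.84 FPKM in any library. Of the 7 immune markers, PTPRC was under 0.1 FPKM in every library, and sums were 84.9 and 79.2 FPKM with ZNF263 against 85.5 and 85 with control in H1975, 36.6 and 31 against 42.6 and 41.9 in HCC827, and 3.61 and 3.84 against 3.57 and 3.28 in PC9.

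Genes whose log2(FPKM + 1) followed a member's most closely over the 12 libraries were named by Pearson's r among 12218 genes, as a description with no p. The points of a line share that line and perhaps a table made for it alone, so differences between the 3 lines enter every r. ESRP1 was most like ST14, PAG1 and LY96 (r = 0.9983 for ST14), ESRP2 like MDK, NT5E and NEK6, GRHL2 like S100A14, RAB6B and TSPAN1, and OVOL1 like GOLGA7B, MAPK8IP2 and MACC1. ST14 and S100A14 belong to the list of epithelial genes repressed by ZEB and SNAI factors. NT5E, close to ESRP2 (r = 0.9960), belongs instead to the list of mesenchymal genes raised in the transition. ZEB1 was most like DIO2, XYLB and PRMT3 (r = 0.9944 for DIO2), ZEB2 like RHOU, CCDC117 and SUGP2, SNAI1 like CPOX, STEAP1 and POMT2, SNAI2 like TPM3, ABHD5 and MEPCE, and TWIST1 like LIG3, GSPT2 and SLC22A18. FOXQ1 was most like CYFIP1, FAM81A and TIPIN.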

How the data were processed

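RNA-seq gave 12 libraries, with 2 for each of 6 groups. The authors deposited FPKM values, 1 column per library. They used genome build GRCh38.p13, per the submitters' processing notes. Not given in the sources used here are the aligner, the counting tool, the annotation and the strand setting. Of 20030 entries, 27 whose names had become dates were left out. All genes had values in PC9, while 3383 had none in HCC827 and 3339 none in H1975.

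Genes at 1 FPKM or more in at least 2 libraries were kept. Then limma 3.58.1 in R 4.3.3 was fitted to log2(FPKM + 1) with 1 mean per group and a trended prior over all 12 libraries. Contrasts were ZNF263 minus control within a line and differences between these, two-sided, with Benjamini-Hochberg adjustment over all genes tested. Scripts were tested on simulated data. Depth was recovered as the smallest whole reads that give a gene's values (to within 0.001 read), which existed for 99.4% of PC9 genes, 99.5% of HCC827 genes and 98.5% of H1975 genes. The worth of a read matched that in HCC827, within 1%, for 86.4% of genes in H1975 and 19.3% in PC9, which is why levels are not tested across lines. Floors of 3 reads cover counting error only. Gene positions come from the GENCODE annotation of GRCh38, matched by symbol, and promoters from RefSeq.

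All 10 members were named in every line, and of each list up to 2 called genes with the largest rise and 2 with the largest fall in a line, besides CDH1, EPCAM, VIM and CDH2. Some genes that this rule names are not reported here. For likeness the 3 genes with the highest r were named. The members and the lists were chosen with earlier results of these data known. Alternatives were a pseudocount of 0.1 FPKM, no filter, a filter of 5 FPKM, 2 other scalings, a fit per line, a replicate block, leaving out each library, and subtracting the median of genes within 5 Mb.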

Additional observations from a re-analysis of the deposited data

Results flagged for a closer look

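For 9 of the 10 members, the change with ZNF263 differed between the 3 lines by the limma F test, which called 60.3% of all genes. The limma adjusted p of this test was 8.7e-10 for ESRP1, 1.45e-08 for OVOL1, 2.74e-07 for ZEB2, 4.05e-07 for GRHL2, 2.94e-06 for FOXQ1, 9.09e-06 for ESRP2, 1.86e-05 for ZEB1, 0.00559 for SNAI2 and 0.0227 for TWIST1. GRHL2 and OVOL1 are the 2 with a called change of opposite sign in a pair of lines, higher with ZNF263 in HCC827 and lower in H1975. For 6 of the 9 the test includes a line with 0 to 6 reads per library, in which a change was not measurable: ESRP1, ESRP2, GRHL2 and OVOL1 in PC9, FOXQ1 in HCC827 and TWIST1 in H1975. The cause of the differences between lines was not tested.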

How the results depend on the processing

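Across the alternative settings, 155 of 165 values of the 14 called member changes kept their direction and call, 10 kept only their direction and 0 turned round. All 94 of those in H1975 kept both. In PC9 the count of called members was 2, but 1 with no filter on low values and 1 with the line fitted alone, 3 after quantile normalization, and 1 to 2 without single libraries. All genes called there numbered 1430, but 407 with the line alone and 726, 854, 763 and 591 without ZNF263 replicate 1, ZNF263 replicate 2, control replicate 1 and control replicate 2. In HCC827 4 members were called, but 2 with the line alone, 3 each with a pseudocount of 0.1 FPKM, no filter and a filter of 5 FPKM, and 3 to 4 without single libraries, and 2386 genes, but 634 with the line alone and 1082 without ZNF263 replicate 1 (range 1082 to 3109). These fits have fewer libraries behind the spread by construction. The members whose change differed between lines numbered 9, and 7 to 10 across the alternatives. Inducers less epithelial regulators changed by -0.40 in PC9, -0.71 in HCC827 and 2.79 in H1975 with a pseudocount of 0.1 FPKM, against -0.25, -0.55 and 1.87. With the replicate block, members called were 2, 4 and 8 in PC9, HCC827 and H1975, as without it. Same-numbered libraries deviated together little (r = 0.0371, 0.0894 and -0.0435 in PC9, HCC827 and H1975), so the numbers were not taken as pairs. ZEB2, TWIST1 and OVOL1 were removed by a filter of 5 FPKM, and OVOL1 had no value above 0 in PC9. Scaling moved the median of all genes in HCC827 to -0.00413, against 0.0449. At 0 to 6 reads per library, TWIST1 in H1975, FOXQ1 in HCC827 and the 4 epithelial regulators in PC9 were too shallow to show a change.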

Other observations

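Lung markers other than CDH1 and EPCAM moved in HCC827, where the epithelial regulators GRHL2 and OVOL1 rose. SFTPB, surfactant protein B, rose to 38.2 and 28.8 FPKM with ZNF263 against 10.4 and 10.8 with control (log2 change 1.56, limma adjusted p = 3.84e-06). NAPSA, an aspartic protease of alveolar cells, rose by 0.57, while the keratins KRT7 and KRT19 fell (changes -0.64 and -0.57). In H1975, where ZEB1 and ZEB2 rose, CD14, a co-receptor best known from monocytes, rose to 21.7 and 18.7 FPKM with ZNF263 against 2.22 and 3.96 with control (2.40, limma adjusted p = 3.15e-07), while CD68, the other immune marker tested, fell to 62.9 and 60 FPKM against 83.1 and 80.9 (-0.41, limma adjusted p = 0.000159) and PTPRC stayed under 0.1 FPKM. PDGFRB rose there to 1.36 and 1.88 FPKM with ZNF263 against 0.0404 and 0.197 with control, and LUM fell to 0.0993 and 0.164 FPKM against 1.89 and 1.79.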
